A study of Mus musculus with 8 samples.

Results

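Transcripts of 42 genes of DNA crosslink repair, recombination, end joining and the damage checkpoint were followed in TCMK-1 cells, a mouse kidney epithelial line, after depletion of smgGDS. The members were taken by gene symbol from a table of 21879 genes, in which all 42 were present, and were ordered into 7 groups by role. The knockdown group held 4 libraries of cells with an shRNA against smgGDS, the product of Rap1gds1 and a stimulator of nucleotide exchange on small GTPases. The control group held 4 libraries of cells with a control shRNA. Both groups had received 20 µM cisplatin, so each difference is between 2 cisplatin-treated groups and none measures the effect of the drug. The labels do not say whether the 4 libraries of a group were separate cultures or whether each shRNA line was a single clone, so p-values measure the spread between these libraries, which may be technical.

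Cisplatin joins bases within and between DNA strands. At a crosslink between strands, the Fanconi core complex attaches ubiquitin to the FANCD2 and FANCI pair, which directs nucleases to cut the crosslink out, and the deubiquitinase USP1 resets the pair. The break left behind is trimmed by end resection and copied from the sister strand by the BRCA proteins and other recombination factors. Ku and DNA-PKcs instead join broken ends directly, and the kinases ATM and ATR signal the damage and halt the cell cycle. Many of these genes are transcribed most in S and G2 phase.

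Of the 41 members with enough counts to be tested, 2 rose and 3 fell in the knockdown. The risers were Prkdc, the catalytic subunit of the end-joining kinase DNA-PK, and Atr, the kinase that senses stalled forks and resected ends. The genes that fell were Rad51d, a recombination gene, Lig4, the ligase of end joining, and Slx4, a scaffold for crosslink nucleases. These 5 are 12.2% of the tested members, against 20.2% of all 11576 genes tested (edgeR quasi-likelihood test, Benjamini-Hochberg adjusted p under 0.05). By direction, 11.1% of all tested genes were higher and 9.15% were lower. At an unadjusted p under 0.05 the members numbered 13 of 41, against 32% of all tested genes, and their median absolute log2 fold change was 0.142, against 0.122 over all tested genes. The difference between the shares of members and of all genes was not tested. All log2 fold changes are knockdown minus control, and their median was 0.00 over the members as well as over all tested genes. In such bulk libraries fewer cells of a type and less RNA per cell cannot be told apart.

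**Figure D1:**
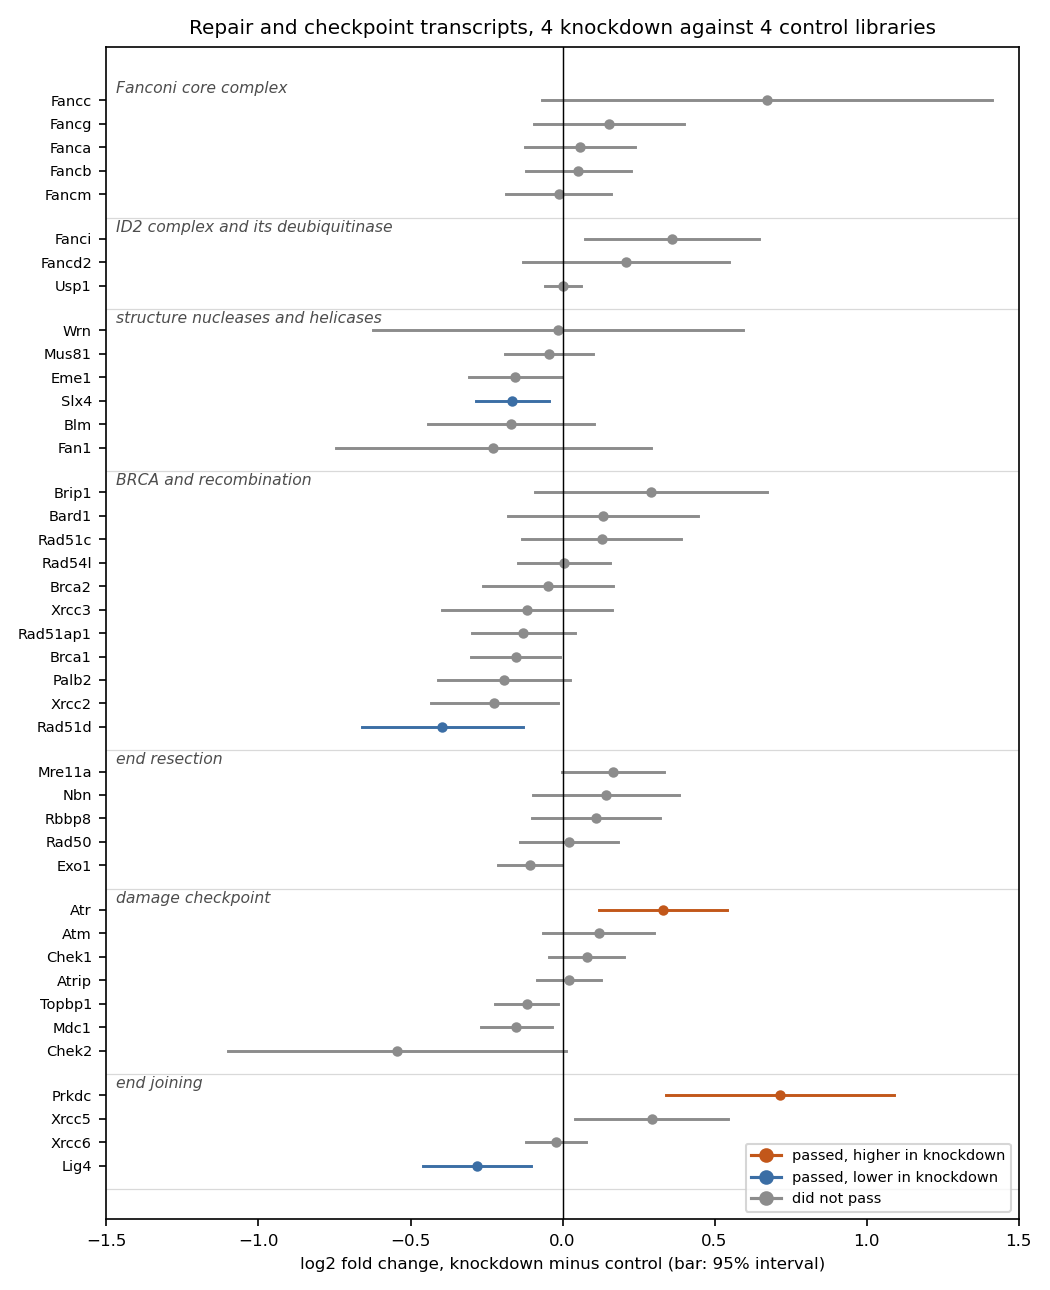
Log2 fold changes (x axis, knockdown minus control) of the 41 tested genes by role, with 95% intervals from the edgeR fit on 4 knockdown and 4 control libraries. Prkdc and Atr lie to the right of 0 and Rad51d, Lig4 and Slx4 to the left, while the wide bars belong to low-count genes such as Fancc, Wrn and Chek2.

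The libraries matched their labels. Rap1gds1 averaged 2.63 ± 0.19 CPM (counts scaled by library size) in the knockdown and 16.2 ± 0.80 CPM in controls (SD, n = 4 each). Total expected counts per library were 12746051 to 14280962 in the knockdown and 11560977 to 16059158 in controls. Knockdown replicate 4 stood apart on the first principal component, which placed it at -20.9, knockdown replicates 1 to 3 at -9.58 to -8.86 and controls at 8.86 to 16.5. Without it, Prkdc and Atr still passed as higher and Rad51d as lower, while Lig4 and Slx4 did not pass. Of 12 kidney epithelial markers 7 could be tested. Aqp1 led them at 51.1 FPKM (fragments scaled by transcript length and library size) over all libraries, followed by Krt19 at 7.39 and Pax8 at 3.69 FPKM. Krt19 and Pax8 had log2 fold changes of -0.03 and 0.05. Krt8, Krt18 and Epcam lay at 0.95 to 1.32 FPKM, and Cdh1 and Slc34a1 lay at 0.025 and 0.00625 FPKM. Aqp1 was the 1 epithelial marker that passed and was lower, at 45.0 ± 1.21 FPKM in the knockdown and 57.1 ± 2.69 FPKM in controls (SD, n = 4 each). The summed epithelial level, mostly Aqp1, was 58.0 to 61.3 FPKM in the knockdown and 69.4 to 76.0 FPKM in controls. Of the other 6 testable markers 3 had estimates above 0 and 3 below. All 4 testable of 6 fibroblast markers rose, with a summed level of 64.2 to 72.8 FPKM in the knockdown and 56.1 to 59.4 FPKM in controls, while Pdgfra and Lum were near 0. Of 5 endothelial markers only Flt1 was testable, and it rose, with a summed level of 2.76 to 3.31 FPKM in the knockdown and 2.10 to 2.63 FPKM in controls. Of 5 leukocyte markers 2 were testable and Cd14 fell. Their sum, mostly Cd14, was 30.4 to 39.4 FPKM in the knockdown and 43.25 to 49.97 FPKM in controls, with Ptprc and Cd3e at or near 0. The part of these shifts in the results on repair genes was not tested.

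End joining held the member that rose most and one of the 3 that fell. That is 50% called of only 4 genes, against 20.2% of all tested genes (11.1% higher and 9.15% lower). The difference between these shares was not tested. Prkdc (ncbi_19090, chromosome 16, 15637444 to 15842239, GRCm38.p6) had 64, 51, 54 and 56 counts in knockdown replicates 1 to 4, against 35, 48, 35 and 37 in control replicates 1 to 4. Once scaled for depth, every knockdown library lay above every control library, at 4.34 ± 0.25 CPM in the knockdown and 2.66 ± 0.45 CPM in controls (SD, n = 4 each). Its log2 fold change was 0.72 (SE of 0.19, adjusted p = 0.00404 by edgeR), or 164% of control with a 95% interval of 127% to 213%. Prkdc was one of the least abundant members at 0.40 FPKM, so this rise rests on few reads. On log2(FPKM + 0.5), which damps low genes, the estimate was 0.29 and did not pass (limma adjusted p = 0.0742).

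The Ku subunits, which hold the broken end for DNA-PKcs, differed in level. Xrcc5, encoding Ku80, had 115, 104, 96 and 109 counts in the knockdown and 103, 120, 97 and 74 counts in controls. Its depth-scaled levels did not overlap between groups, at 8.19 ± 0.42 CPM in the knockdown and 6.67 ± 0.43 CPM in controls (SD, n = 4 each), yet the change missed the threshold (log2 fold change 0.29 with an SE of 0.12, adjusted p = 0.091 by edgeR). Xrcc6, encoding Ku70, had 75.1, 72.35, 70.6 and 66.0 CPM in the knockdown and 71.4, 74.1, 70.0 and 72.8 CPM in controls, and these ranges overlapped (log2 fold change -0.02, SE 0.05, 95% interval -0.12 to 0.08). Per length, Xrcc6 exceeded Xrcc5 by 9.30 to 11.2 times in the knockdown and by 12.5 to 13.9 times in controls. The 2 subunits act as a pair, but their transcripts thus stood far apart in every library.

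Lig4 (ncbi_319583, chromosome 8, 9970020 to 9977680, GRCm38.p6), whose product seals the joined ends, had 241, 220, 194 and 183 counts in the knockdown and 333, 321, 298 and 207 counts in controls. It stood at 16.16 ± 1.301 CPM in the knockdown and 19.59 ± 1.398 CPM in controls (SD, n = 4 each), without overlap. Its log2 fold change was -0.28 (SE of 0.09, adjusted p = 0.0187 by edgeR), or 82.4% of control. Its estimate was -0.26 without knockdown replicate 3, -0.24 without knockdown replicate 4, -0.26 without control replicate 1 and -0.25 without control replicate 3, and in these 4 fits it did not pass. Its partners Xrcc4 and Nhej1, outside the 42 members, had at most 10 and 5 counts in any library and were not tested.

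**Figure D2:**
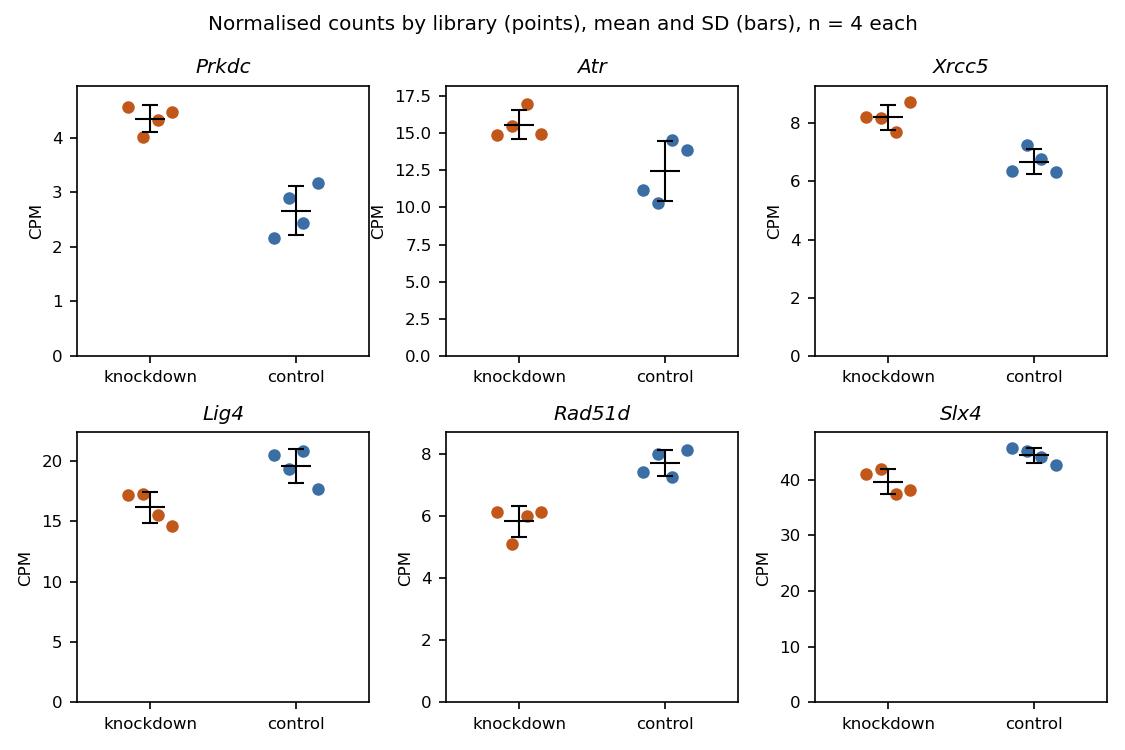
Normalised counts (CPM, y axis from 0) in each knockdown library and each control library, with the mean and SD of 4. Prkdc, Atr and Xrcc5 are higher in all 4 knockdown libraries than in any control library, and Lig4, Rad51d and Slx4 are lower, although Xrcc5 did not pass the adjusted threshold.

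Both Prkdc and Lig4 lie close to a second gene. Only 43 bases separate Prkdc from Mcm4, a subunit of the replicative helicase. Mcm4 was at 412.7 ± 9.66 CPM in the knockdown and 404.6 ± 5.30 CPM in controls (SD, n = 4 each, log2 fold change 0.03 with an SE of 0.03, 95% interval -0.03 to 0.09, adjusted p = 0.544 by edgeR). The difference between the estimates of Prkdc and Mcm4 was not tested. Lig4 is 36 bases from Abhd13, a hydrolase family gene. Abhd13 was lower too, at 40.7 ± 2.38 CPM in the knockdown and 47.6 ± 2.67 CPM in controls (SD, n = 4 each, log2 fold change -0.22 with an SE of 0.06, adjusted p = 0.00528 by edgeR). No source used here says whether reads were counted by strand, so reads of overlapping genes cannot be told apart. Atr overlaps 1700065D16Rik, which had at most 4 counts in any library, and the annotated spans of Gm16794 and LOC115487301, for which no counts were used here. Prkdc likewise overlaps Gm52255. Slx4 lies 87 bases from Nlrc3, which did not pass (log2 fold change 0.00, SE 0.34). These neighbours were looked up after the values of Prkdc and Lig4 had been seen.

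**Figure D3:**
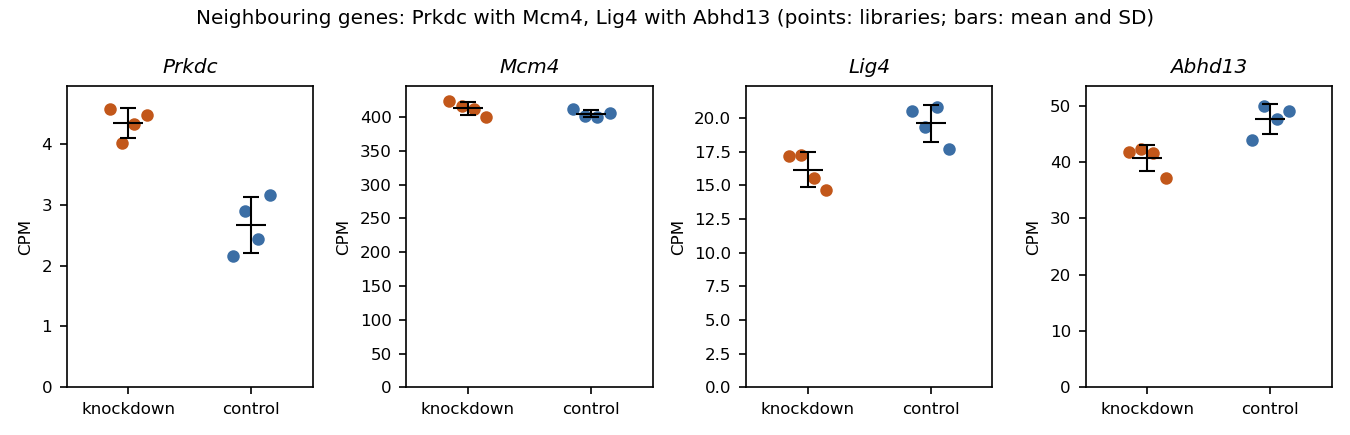
Normalised counts (CPM, y axes from 0) of 2 neighbouring gene pairs in 4 knockdown and 4 control libraries, with mean and SD. Prkdc is higher in the knockdown beside an Mcm4 of 412.7 and 404.6 CPM, whereas Lig4 and Abhd13 are both lower.

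Upstream sequences are shown for one gene that rose and one that fell, to give the regions in front of Atr and Lig4. Each holds the 250 bases before the annotated start, 5′ to 3′ on the strand of the gene, from RefSeq's table for GRCm38.p6, in which 32 of the 42 members were matched. In the Lig4 sequence (chr8:9977681-9977930, minus strand) capitals mark the 36 bases between Lig4 and Abhd13. Its other bases lie within the annotated span of Abhd13, and the whole Atr window lies within that of 1700065D16Rik. In the Atr sequence (chr9:95857347-95857596, plus strand) capitals mark 2 matches to the GC box GGGCGG, searched on both strands.
Lig4: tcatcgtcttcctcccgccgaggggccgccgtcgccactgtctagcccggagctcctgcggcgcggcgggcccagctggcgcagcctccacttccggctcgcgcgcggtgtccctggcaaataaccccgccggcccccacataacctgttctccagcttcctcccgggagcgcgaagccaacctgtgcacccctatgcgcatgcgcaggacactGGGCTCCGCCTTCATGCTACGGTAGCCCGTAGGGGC
Atr: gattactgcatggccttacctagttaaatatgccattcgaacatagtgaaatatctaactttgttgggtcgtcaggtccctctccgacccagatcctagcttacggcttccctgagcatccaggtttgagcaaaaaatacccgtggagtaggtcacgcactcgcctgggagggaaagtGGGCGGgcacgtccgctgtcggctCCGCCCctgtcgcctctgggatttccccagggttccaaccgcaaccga

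Over the matched members, the GC box was in 16 of 32 windows (50%), against 60.7% of 9289 windows of tested genes. The CCAAT box (CCAAT) was in 17 of 32 (53.1%), against 37.4%. The E2F-type letters TTTCCCGC, TTTCGCGC, TTTGCCGC or TTTGGCGC were in 7 of 32 (21.9%), against 3.71%. These 7 were Bard1, Brca2, Chek2, Fancg, Mdc1, Topbp1 and Xrcc6. None of them passed the test (7 at edgeR adjusted p of 0.0567 to 0.817), while 20.2% of all tested genes passed. Of the members that passed, Prkdc and Rad51d had no matched window, so they could show no site. The CHR letters TTTGAA were in 1 of 32 (3.12%), against 10.7%. All letters were searched on both strands, where the 4 E2F forms can overlap one another. The Lig4 window held none of the letters searched. The window before the listed start is not always in front of the gene. That start was the gene's annotated 5′ end in 8 of the 32 members, among them Atr and Lig4, and lay inside the gene in the other 24. In 4 of these, Fancc, Fancm, Slx4 and Xrcc6, it lay more than 500 bases inside, and in Xrcc6 28536 bases inside. Among windows of all tested genes 14.5% had a start more than 500 bases from the annotated end. A match describes the window only.

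Of the 7 damage checkpoint genes 1 rose and 0 fell, or 14.3% called. Over all tested genes 20.2% were called and 11.1% were higher. The riser was Atr (ncbi_245000, chromosome 9, 95857597 to 95953217, GRCm38.p6). It had 14.9, 15.5, 16.98 and 14.9 CPM in the knockdown and 11.2, 10.3, 14.5 and 13.9 CPM in controls. The groups did not overlap, but controls 3 and 4 came close to the lowest knockdown library. Its log2 fold change was 0.33 (SE of 0.10, adjusted p = 0.019 by edgeR), or 126% of control with a 95% interval of 108.7% to 145.5%. It was 0.29 without knockdown replicate 3, 0.28 without control replicate 1 and 0.25 without control replicate 2, and did not pass in these fits. After adjustment for transcript length and GC content it was 0.25 (edgeR adjusted p = 0.0932), and on log2(FPKM + 0.5) it was 0.22 (limma adjusted p = 0.226). The authors' FPKM of Atr overlapped, with 3.27, 3.27, 3.60 and 2.38 in the knockdown and 2.49, 2.36, 2.43 and 3.16 in controls. These FPKM did not follow its CPM. Knockdown replicates 1 and 4 both had 14.9 CPM but 3.27 and 2.38 FPKM, and the reason was not tested. Genes with the longest transcripts, at least 6745 bases, had a median log2 fold change of 0.065, against -0.01 in the rest. Atr at 8102 bases and Prkdc at 12647 bases were both among them, whereas Slx4, Lig4 and Rad51d at 5706, 5028 and 3547 bases were not. Lengths are given only for the members that passed. Prkdc still passed as higher after the length and GC adjustment. The part of transcript length in these changes was not tested.

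Atrip, the obligate partner of ATR, was more abundant per length in every library and did not pass. It had 64.9, 67.2, 71.9 and 67.35 CPM in the knockdown and 68.3, 71.5, 60.45 and 66.7 CPM in controls, with overlapping ranges (log2 fold change 0.02, SE 0.05, 95% interval -0.08 to 0.13). Per length, Atrip exceeded Atr by 7.43 to 10.6 times in the knockdown and by 8.21 to 12.0 times in controls. These ratios rest on the FPKM of Atr, which did not follow its CPM. Atm, the kinase that responds to breaks, was at 17.2 ± 1.67 CPM in the knockdown and 15.8 ± 0.38 CPM in controls (SD, n = 4 each, edgeR adjusted p = 0.393). Chek1, the kinase downstream of ATR, had a log2 fold change of 0.08 (SE 0.06, edgeR adjusted p = 0.395). Topbp1, the activator of ATR, and Mdc1, the scaffold at marked breaks, had estimates of -0.12 and -0.15 (edgeR adjusted p = 0.1 and 0.0567). Mdc1 passed as lower in 7 of 17 alternative fits, among them the 3 fits without knockdown replicate 2, control replicate 3 or control replicate 4. Chek2, the kinase downstream of ATM, was low, at 1.48 ± 0.49 CPM in the knockdown and 2.11 ± 0.63 CPM in controls (SD, n = 4 each). Its groups overlapped, and its interval of -1.10 to 0.01 allowed anything from a fall beyond 2-fold to no change.

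Among nucleases and helicases that act on branched DNA, all 6 estimates were below 0 and 1 passed. That is 16.7% called, against 20.2% called and 9.15% called lower over all tested genes. Of the 11576 tested genes, 5903 had estimates below 0. Slx4 (ncbi_52864, chromosome 16, 3979105 to 4003829, GRCm38.p6) had 41.0, 41.95, 37.3 and 38.1 CPM in the knockdown and 45.65, 45.2, 44.0 and 42.6 CPM in controls. The groups were separated by a narrow gap, between knockdown replicate 2 and control replicate 4. Its log2 fold change was -0.16 (SE of 0.06, adjusted p = 0.0415 by edgeR), or 89.2% of control. It passed in 8 of 17 alternative fits, with estimates between -0.22 and -0.14. It did not pass with DESeq2, on FPKM, with no filter on low counts, after the length and GC adjustment, or without any one of knockdown replicates 3 and 4 and control replicates 1 to 3, where the estimates were -0.14, -0.15, -0.15, -0.16 and -0.17.

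Mus81 and Eme1 encode the subunits of a nuclease that binds SLX4. Eme1 had 23.5, 21.99, 23.15 and 20.1 CPM in the knockdown and 24.55, 25.5, 24.7 and 24.1 CPM in controls. Its groups did not overlap, but it did not pass (log2 fold change -0.16 with an SE of 0.08, adjusted p = 0.15 by edgeR), and its counts are not all whole. Its annotated span overlaps those of Lrrc59 and Mrpl27. Mus81 was the most abundant of the nucleases and helicases at 14.3 FPKM and overlapped between groups, with 28.25, 27.1, 27.3 and 25.8 CPM in the knockdown and 27.9, 30.4, 27.8 and 25.4 CPM in controls (edgeR adjusted p = 0.725). The nuclease gene Fan1 and the helicase genes Blm and Wrn were low, at 0.434, 1.404 and 0.20 FPKM, with log2 fold changes of -0.23, -0.17 and -0.01 that did not pass. The intervals of Fan1 and Wrn reached a 1.5-fold change in the downward direction, and that of Wrn also reached it upward.

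In the BRCA and recombination group of 11 genes, 1 fell and none rose, or 9.09% called against 20.2% of all tested genes, of which 9.15% were lower. Rad51d (ncbi_19364, chromosome 11, 82871960 to 82890624, GRCm38.p6) had 86, 65, 75 and 77 counts in the knockdown and 121, 133, 104 and 95 counts in controls. It stood at 5.85 ± 0.50 CPM in the knockdown and 7.71 ± 0.43 CPM in controls (SD, n = 4 each), with no overlap. Its log2 fold change was -0.40 (SE of 0.13, adjusted p = 0.0261 by edgeR), or 76.0% of control with a 95% interval of 63.3% to 91.3%. Knockdown replicate 2 was the lowest library at 5.11 CPM. The call was lost without it (-0.34), without control replicate 2 (-0.37) and without control replicate 4 (-0.37), and kept in the other 14 of 17 alternative fits. Xrcc2, which sits beside RAD51D in a recombination complex, had an estimate of -0.22 with overlapping groups (SE 0.10, edgeR adjusted p = 0.123). Rad51c and Xrcc3, which form a second complex, had estimates of 0.13 and -0.12 (edgeR adjusted p = 0.539 and 0.614).

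In the reported fit the BRCA genes and their partners did not pass. Brca1, the scaffold that promotes resection, was at 27.0 ± 1.86 CPM in the knockdown and 30.0 ± 2.38 CPM in controls (SD, n = 4 each, log2 fold change -0.15 with an SE of 0.07, adjusted p = 0.135 by edgeR). Brca1 passed as lower under library-total scaling (-0.21, adjusted p = 0.0341) and after the length and GC adjustment (-0.20, adjusted p = 0.0455). Its partner Bard1 had an estimate of 0.13 and its helicase Brip1 one of 0.29, both with overlapping groups. With 1 library left out Bard1 ranged over 0.05 to 0.23, and Brip1 was 0.09 without knockdown replicate 4 and 0.44 without knockdown replicate 3. Palb2, which bridges BRCA1 and BRCA2, was at 12.8 ± 2.05 CPM in the knockdown and 14.6 ± 1.66 CPM in controls (SD, n = 4 each), with an estimate of -0.19 that was -0.09 without knockdown replicate 4. Brca2, a mediator of recombination, had an estimate of -0.05 (95% interval -0.26 to 0.17). Rad51ap1, a recombination cofactor and the most abundant of the group at 11.1 FPKM, had 20.05, 23.1, 19.0 and 17.9 CPM in the knockdown and 21.35, 23.3, 22.3 and 20.3 CPM in controls (log2 fold change -0.13, edgeR adjusted p = 0.308). Rad54l, a DNA motor of recombination, had an estimate of 0.00 (SE 0.08). The authors' FPKM summed over the 11 genes were 38.1 to 43.3 in the knockdown and 44.1 to 49.3 in controls, on a scale where the median of all tested genes was shifted by -0.05 (log2). In the other 6 groups of members the summed FPKM of the knockdown and control libraries overlapped, and in the Fanconi core the sum was 18.9 ± 0.76 in the knockdown and 18.7 ± 1.45 in controls (SD, n = 4 each).

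End resection genes gave 0 calls with edgeR, with 1 of the 5 at an unadjusted p under 0.05, a level that 32% of all tested genes reached. DESeq2 and limma voom also made no call among them. Exo1, the long-range resection nuclease, had 52.4, 51.7, 51.9 and 49.9 CPM in the knockdown and 57.3, 54.6, 54.0 and 55.95 CPM in controls. Its groups were separated and its estimate was small (log2 fold change -0.11 with an SE of 0.05, adjusted p = 0.147 by edgeR), passing as lower after library-total scaling, on FPKM and after the length and GC adjustment. Mre11a, the nuclease of the break-sensing complex, was separated in the other direction, with 20.8, 20.5, 19.1 and 21.01 CPM in the knockdown and 18.0, 16.95, 18.9 and 18.8 CPM in controls. It did not pass either (log2 fold change 0.17 with an SE of 0.08, adjusted p = 0.162 by edgeR), and its counts are not all whole. Its complex partners Rad50 and Nbn had estimates of 0.02 and 0.14, and Rbbp8, the resection starter CtIP, one of 0.11. The unadjusted intervals of all 5 lay inside a 1.5-fold change.

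The Fanconi core genes, the FANCD2 and FANCI pair and Usp1 gave 0 calls with edgeR, with DESeq2 and with limma voom. By edgeR 1 of these 8 tested genes reached an unadjusted p under 0.05, against 32% of all tested genes. That gene was Fanci, with 6.56, 6.91, 5.85 and 7.19 CPM in the knockdown and 4.55, 4.95, 5.93 and 5.30 CPM in controls. Control replicate 3 lay above knockdown replicate 3, so the groups overlapped (log2 fold change 0.36 with an SE of 0.14, adjusted p = 0.0677 by edgeR). Without control replicate 3 the estimate was 0.43 and passed (edgeR adjusted p = 0.0481). Fancd2, its partner, was at 4.85 ± 1.10 CPM in the knockdown and 4.20 ± 0.12 CPM in controls (SD, n = 4 each), and the single highest value of 6.31 CPM was in knockdown replicate 4. Usp1, which removes the ubiquitin from the pair, had the highest level of all members at 142 FPKM and the smallest error. It had 524, 525, 495 and 486 CPM in the knockdown and 515, 509, 501 and 503 CPM in controls, with a log2 fold change of 0.00 and a 95% interval of -0.06 to 0.06.

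Within the core complex, the scaffold gene Fanca led at 6.53 FPKM, with 32.5, 27.65, 26.4 and 30.8 CPM in the knockdown and 26.3, 29.7, 23.5 and 33.9 CPM in controls. The ranges overlapped almost fully (log2 fold change 0.06, SE 0.09). Fancb, Fancg and the DNA translocase gene Fancm had estimates of 0.05, 0.15 and -0.01. Fancc was near the detection limit, with 25, 8, 11 and 18 counts in the knockdown and 10, 18, 7 and 9 counts in controls, and its estimate of 0.67 had an interval of -0.07 to 1.41. Fancl, the ubiquitin ligase of the complex, was the 1 member left out of the test, with 3.12 to 17.6 estimated counts per library.

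Read as levels per length, the members covered a wide range. Their mean FPKM over all libraries ran from 0.20 for Wrn to 142 for Usp1, with a median of 3.68. Of the 42, 8 were under 1 FPKM, 25 between 1 and 10 and 9 at 10 or more. After Usp1 came Xrcc6 at 34.0, Atrip at 25.8 and Exo1 at 16.6 FPKM. Along this order only 5 of 41 neighbouring pairs had ranges over the 8 libraries that did not overlap: Usp1 over Xrcc6, Xrcc6 over Atrip, Atrip over Exo1, Eme1 over Slx4 and Xrcc3 over Blm. The steps between other neighbours were within the spread of the libraries.

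**Figure D4:**
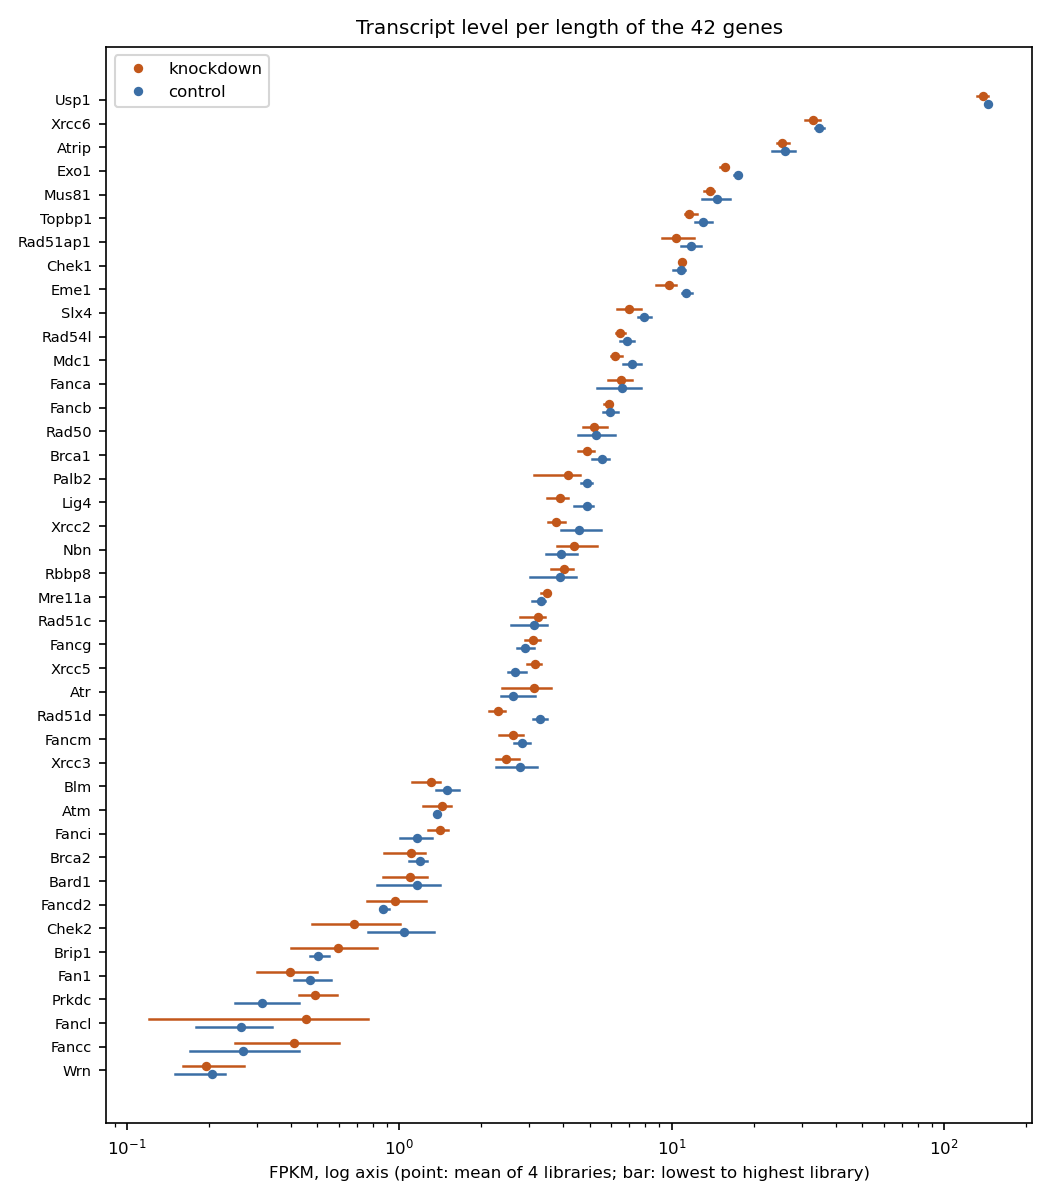
Authors' FPKM (x axis, log scale) of the 42 genes in order of their mean level, as the mean and the lowest to highest of 4 knockdown and of 4 control libraries. Usp1 stands alone at 142 FPKM, most genes lie between 1 and 10 FPKM, and Prkdc is among the lowest.

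Depth limited what could be seen in the low genes. Of the 36 tested members that did not pass, 30 had a 95% interval inside a 1.5-fold change in both directions. The other 6, Fancc, Fanci, Fan1, Wrn, Brip1 and Chek2, did not exclude it, and for Fancc and Chek2 a 2-fold change was also within the interval. Standard errors of the members ran from 0.03 for Usp1 to 0.37 for Fancc, with a median of 0.10, against 0.09 over all tested genes. Over the members, 4 were higher and 5 lower with groups that did not overlap. Those 9 are 22% of the tested members, against 21.1% of all tested genes, of which 11.5% were higher and 9.61% lower without overlap.

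Of a wider list of 66 genes 65 were in the table and 63 were tested. In it 2 rose and 11 fell, or 20.6% called against 20.2% of all tested genes. The median log2 fold change was -0.08, with 16 estimates above 0 and 47 below. Over all tested genes 5673 estimates were above 0 and 5903 below. The difference between these splits was not tested. Among Fanconi genes Uhrf1, a sensor of crosslinks, was at 237.8 ± 5.75 CPM in the knockdown and 264.4 ± 4.95 CPM in controls (SD, n = 4 each, log2 fold change -0.15), and the ubiquitin ligase gene Rfwd3 had -0.17. Among recombination genes Rmi1, a partner of BLM, fell by 0.30 on the log2 scale and Swsap1, a recombination cofactor, fell by 0.41. Rpa3, a subunit of the single-strand binding protein RPA, rose by 0.31, whereas Rpa1 and Rpa2 had 0.01 and -0.08 and did not pass. In end joining the gap-filling polymerase Poll fell to 46.9 ± 2.78 CPM in the knockdown, against 58.4 ± 2.98 CPM in controls (SD, n = 4 each, log2 fold change -0.31, edgeR adjusted p = 4.64e-05).

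Among checkpoint and break-signalling genes of that list, 1 rose and 6 fell of 22. Cdc25a and Cdc25c, phosphatases that drive the cell cycle, fell by 0.33 and 0.27, and Wee1, the kinase that opposes them, fell by 0.35 on the log2 scale. Tipin, which steadies stalled forks, fell by 0.18, and the ubiquitin ligase genes Rnf8 and Rnf168, which mark chromatin at breaks, fell by 0.18 and 0.27. Babam2, listed as Bre, a subunit of the BRCA1-A complex, rose by 0.47 (SE 0.14, edgeR adjusted p = 0.0134), with groups that overlapped. For the 13 that passed, edgeR adjusted p lay between 4.64e-05 and 0.0382. Cell cycle lists are given beside them because many repair genes follow the cycle. Of 14 G2/M genes 10 fell and none rose (71.4% called, median -0.21). Of 16 S phase genes 4 fell and none rose (25% called, median -0.02), and over all tested genes 20.2% were called and 9.15% were lower. Their part in the values of the repair genes was not tested.

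The number of members called lower moved with the processing. With counts scaled by library total alone, 2 members rose and 9 fell. With limma on the authors' FPKM, where scale and method both differ, 0 members rose and 4 fell. Calls over all tested genes moved too. Library-total scaling called 23.5% of them, 766 higher and 1951 lower, and FPKM called 17.9%, 592 higher and 1481 lower. The reported fit called 20.2%, 1285 higher and 1059 lower. The difference between members and all genes in these shifts was not tested. With DESeq2 size factors in edgeR 2 members rose and 3 fell, as reported. The median log2 fold change of all tested genes was -0.06 under library-total scaling and -0.05 on FPKM. The members added as lower by library-total scaling were Eme1, Brca1, Xrcc2, Exo1, Topbp1 and Mdc1, with estimates of -0.21, -0.21, -0.28, -0.16, -0.17 and -0.21. Prkdc passed in 15 of the 16 alternative fits that held it, all but FPKM, with estimates between 0.29 and 0.80 and adjusted p between 0.00343 and 0.0742.

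**Figure D5:**
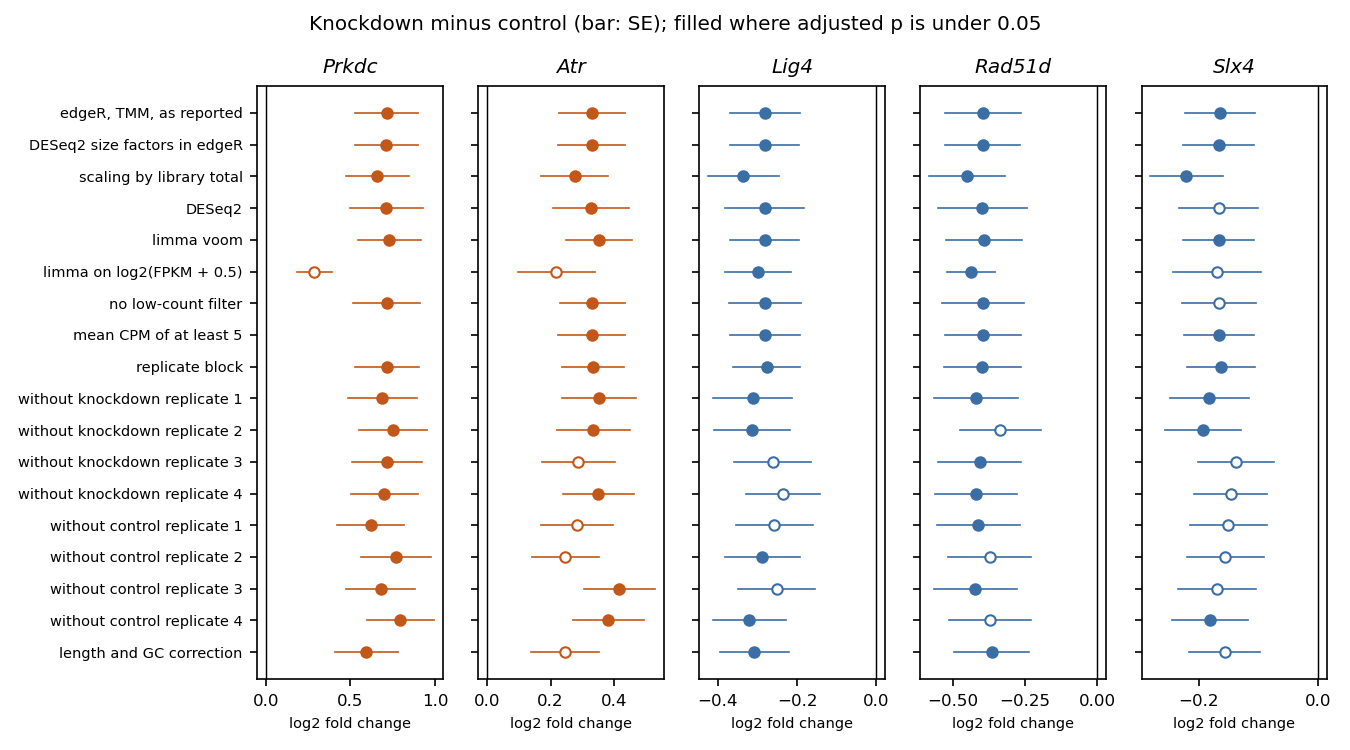
Log2 fold change (x axes, knockdown minus control, bars show the SE) of the 5 genes that passed, under each way of processing the counts, with filled points where adjusted p was under 0.05. No estimate crosses 0, and open points are most frequent for Slx4.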

How the data were processed

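RNA of 8 libraries was poly(A)-selected, per the labels' protocols. The authors deposited 1 table with an expected count per gene and library, not normalised, and the FPKM computed by the authors. Per the submitters' processing notes the build was GRCm38.p6 and the tools included RSEM, StringTie 1.3.1, HISAT2 2.4, Bowtie2 2.2.8, fastp 0.18.0, edgeR and DESeq2, without roles. No source used here gives the strand setting or annotation release. Of the values 6.52% were not whole (tolerance 1e-09), and 10 members had such counts. Counts were rounded and tested by edgeR (version 4.0.16, R version 4.3.3, TMM factors, default expression filter, robust quasi-likelihood F-test on group, two-sided, Benjamini-Hochberg over 11576 genes, threshold 0.05). Standard errors came from the fold change and F, and intervals cover 95% and rest on the spread between libraries. A count of 3 is 0.181 to 0.257 CPM, which covers counting error only. Replicates differed by more than sampling noise (chi-square per degree of freedom 1.92 to 3.81).

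The members and lists were chosen with earlier results of these data known. Every member was named by role. Values per library were given for members that passed, members whose groups did not overlap, and in each role the most abundant by FPKM and the one with the smallest adjusted p. Paxx had no match in the table. Alternatives were DESeq2 size factors, scaling by library total, DESeq2 1.42.0, limma 3.58.1 (voom, and log2(FPKM + 0.5)), omission of each library, a replicate block, a threshold of 0.01 and changed low-count filters. A correction for length and GC content (longest GENCODE M21 transcript, 11178 genes, mgcv) was chosen after seeing the data. Gene positions came from RefSeq's table of the same build, matched on gene identifiers. The fitting code was tested on data simulated with the fitted dispersions. It recovered 25 of 50 genes given a log2 change of 0.3 and 40 of 49 given 0.6. Of 11284 genes given no change, 12 passed.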

Additional observations from a re-analysis of the deposited data

Results flagged for a closer look

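Of 82 groups of 4 libraries examined among the 41 tested members, 4 held 1 library far from the other 3, and chance alone marks about 1 group in 20. Wrn was at 1.78 CPM in knockdown replicate 1, against 1.04 to 1.12 CPM in the other knockdown libraries, and at 0.94 CPM in control replicate 4, against 1.33 to 1.42 CPM in the other controls. Bard1 was at 4.89 CPM in knockdown replicate 3, with the other knockdown libraries at 5.73 to 5.92 CPM. Rad51d was at 5.11 CPM in knockdown replicate 2, with the other knockdown libraries at 6.01 to 6.15 CPM.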

How the results depend on the processing

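The 5 genes that passed kept their direction in every alternative that held them. Members higher numbered 2 in the reported fit, 0 on FPKM, and 1 with a mean CPM of at least 5, after the length and GC correction or at a threshold of 0.01. Members lower numbered 3, with 9 under library-total scaling, 5 after the length and GC correction and 0 at 0.01. Leaving out 1 library gave 1 to 3 higher and 1 to 3 lower. In the wider list of 63 genes, 2 higher became 1 after the length and GC correction and at 0.01, and 11 lower became 20 under library-total scaling and 5 at 0.01, with 1 to 3 higher and 6 to 11 lower when 1 library was left out. Over all genes 1285 were higher and 1059 lower, with 766 and 1951 under library-total scaling, 825 and 580 at 0.01, 592 higher on FPKM, and 1033 to 1227 higher and 802 to 997 lower with 1 library left out.

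None of the members that changed sign passed in the reported fit, where the estimate of Bard1 was 0.13. Under library-total scaling the estimates were -0.0044 for Fancb, -0.054 for Usp1, -0.051 for Rad54l, -0.036 for Rad50 and -0.035 for Atrip. On FPKM they were -0.0051 for Fanca, -0.010 for Fancb, -0.055 for Usp1, -0.051 for Bard1, -0.077 for Rad54l, -0.023 for Rad50 and -0.031 for Atrip. Usp1 was -0.00063 with DESeq2 and -0.00063 with its size factors in edgeR and -6.6e-06 at a mean CPM of at least 5, and Xrcc6 was 0.020 after the length and GC correction. With 1 library left out the ranges were -0.021 to 0.14 for Fanca, -0.045 to 0.037 for Fancm, -0.015 to 0.022 for Usp1, -0.082 to 0.0014 for Mus81, -0.24 to 0.067 for Wrn, -0.11 to 0.050 for Brca2, -0.016 to 0.035 for Rad54l, -0.037 to 0.10 for Rad50, -0.023 to 0.058 for Atrip and -0.050 to 0.012 for Xrcc6. The cause was not tested.

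Libraries of the 2 groups share replicate numbers, but same-numbered libraries deviated together only at r of -0.0365 to 0.0828, so the numbers were not taken as pairs. With the replicate block 2 members were higher and 4 lower, Mdc1 being added. Knockdown replicates 1, 2 and 4 correlated best with the control of their own number and knockdown replicate 3 with control replicate 4, which is a hint from the data and not the design.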
